A study of Mus musculus with 36 samples.

Results

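Imprinted genes were followed through the conversion of mouse epiblast stem cells (EpiSCs), a primed pluripotent state, towards naïve pluripotency and primordial germ cell-like cells. The list holds 46 genes that are known in the mouse for expression from only the maternal or only the paternal chromosome, of 50600 genes listed for the sorted Day 3 cells and 29267 for the other libraries. The files of the sorted cells list all 46, and the others list 45, without *Peg13*. The list was set by name and not by level, but with earlier results of these data known. Of the members, 24 are expressed from the paternal copy, 18 from the maternal copy and 4 (*Grb10*, *Gnas*, *H13*, *Inpp5f*) from either copy depending on the transcript or tissue. They lie in 21 domains on 11 chromosomes, with 18 members on chromosome 7, 7 on chromosome 6 and 5 on chromosome 12. *Snurf* and *Snrpn* are read from 1 transcript, so their counts were summed to 1 row, which leaves 45 rows.

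Bulk RNA-seq of 11 libraries was used, of 36 samples in the series. Day 3 cells had been sorted by the surface receptor c-Kit into c-Kit+ and c-Kit- cells, with 2 libraries each, after 3 days of EpiSC culture in stage 1 medium, which per the methods is the reprogramming medium iCD1 with BMP4, DOT1L inhibition and the EZH2 inhibitor EPZ6438. BV+SC+ cells (2 libraries) carried the reporters Blimp1-mVenus and Stella-ECFP, were cultured for 3 days in iCD1 with BMP4, the DOT1L inhibitor EPZ5676 and EPZ6438 and for 3 more days in N2B27 with 2 kinase inhibitors (2i) and Vitamin C, and were sorted for both reporters at Day 6. They were compared with 3 EpiSC libraries kept in N2B27 with Activin A, bFGF and XAV939. The descriptions of the BV+SC+ libraries differ (2iJi for replicate 1, GK15 for replicate 2) under 1 shared protocol text, and the labels do not say what the tags stand for. The study names GK15 as a culture condition and also describes a JAK inhibitor added in the second stage. The medium of both replicates is thus uncertain, and what the tags mark cannot be told apart from the replicate. Day 3 cells with and without the DOT1L inhibitor SGC0946 gave 1 library each, and by the methods both had the rest of stage 1 medium. Nothing in the labels says whether replicates came from separate cultures, so p-values measure only the spread between these libraries, which may be technical.

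In genomic imprinting, a methyl mark laid down in the egg or the sperm silences or opens the same gene differently on the maternal and the paternal chromosome. ZFP57 with TRIM28 and the methyltransferase DNMT1 keep these marks in the embryo, while primordial germ cells erase them. New marks are set by sex later in the germ line. Many paternally expressed genes promote growth, many maternally expressed genes restrain it, and several members act in the placenta. Counts per gene do not tell the parental copies apart, so the values below are total levels and say nothing of allele.

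The libraries held 1726038 to 1841442 expected counts in sorted cells, 2444211 to 3070115 in EpiSCs, 14778809 and 18099059 in BV+SC+ cells, and 4776143 and 4577685 with and without SGC0946. The sort and reporter genes followed their labels: *Kit* was at 4.81 and 3.24 TPM (a share of all transcripts, scaled to transcript length) in c-Kit- and 99.6 and 96.0 TPM in c-Kit+ cells, and *Prdm1* (Blimp1) was at 0.24 to 0.54 TPM in EpiSCs against 128 and 128 TPM in BV+SC+ cells. The methods describe an mRNA kit for RNA-seq without naming samples, and the labels a total RNA kit without ribosomal RNA for all but the sorted cells. The sources thus differ on the kit of those libraries, and levels were compared within an experiment.

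Stretches before 6 starts of members are shown for what the results turn on: the start shared by *Snurf* and *Snrpn*, the stretch between *Peg3* and *Usp29*, which are read away from each other, and the starts of *Phlda2*, *Igf2*, *Meg3* and *Mest*. They come from RefSeq on GRCm38.p6, whose promoter table held 37 of the 46 members. Each holds the 250 bases before a start on the gene's strand, except the stretch between *Peg3* and *Usp29*, which has 163 bases and is given on the strand of *Peg3*. Capitals mark TGCCGC or its reverse complement GCGGCA, the hexamer bound by ZFP57 when its CpG is methylated.
*Snurf* and *Snrpn*, chr7:60005200-60005449, minus strand: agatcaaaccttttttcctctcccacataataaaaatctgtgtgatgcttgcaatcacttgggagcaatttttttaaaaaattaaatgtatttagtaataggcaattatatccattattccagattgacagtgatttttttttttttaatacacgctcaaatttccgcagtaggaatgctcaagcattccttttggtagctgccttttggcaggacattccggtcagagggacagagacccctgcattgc
*Peg3* to *Usp29*, chr7:6730420-6730582, minus strand: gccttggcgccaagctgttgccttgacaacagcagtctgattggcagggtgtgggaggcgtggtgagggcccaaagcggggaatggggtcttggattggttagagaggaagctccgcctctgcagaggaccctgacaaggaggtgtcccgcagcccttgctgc
*Phlda2*, chr7:143502525-143502774, minus strand: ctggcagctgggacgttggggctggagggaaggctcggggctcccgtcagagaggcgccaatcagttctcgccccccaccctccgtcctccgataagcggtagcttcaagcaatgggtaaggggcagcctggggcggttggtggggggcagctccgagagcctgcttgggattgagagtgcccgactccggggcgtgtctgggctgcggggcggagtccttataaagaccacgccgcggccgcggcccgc
*Igf2*, chr7:142657497-142657746, minus strand: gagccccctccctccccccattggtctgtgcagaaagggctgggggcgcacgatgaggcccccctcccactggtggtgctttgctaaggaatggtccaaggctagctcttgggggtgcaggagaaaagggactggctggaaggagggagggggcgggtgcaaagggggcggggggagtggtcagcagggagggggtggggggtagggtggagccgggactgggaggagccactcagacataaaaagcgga
*Meg3*, chr12:109540746-109540995, plus strand: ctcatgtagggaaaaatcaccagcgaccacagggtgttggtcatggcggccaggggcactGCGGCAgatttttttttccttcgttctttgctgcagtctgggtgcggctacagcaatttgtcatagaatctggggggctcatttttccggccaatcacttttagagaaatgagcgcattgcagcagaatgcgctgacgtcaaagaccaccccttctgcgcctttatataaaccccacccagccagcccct
*Mest*, chr6:30737803-30738052, plus strand: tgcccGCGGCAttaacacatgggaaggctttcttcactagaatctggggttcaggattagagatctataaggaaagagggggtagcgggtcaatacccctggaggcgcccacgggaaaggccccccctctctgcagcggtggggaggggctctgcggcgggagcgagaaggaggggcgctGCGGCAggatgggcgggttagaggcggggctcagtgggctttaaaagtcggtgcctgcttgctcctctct

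The windows differed widely in CpG. The *Phlda2* window held 21 CpG with 68.8% G and C, and the *Snurf* and *Snrpn* window 3 CpG with 36.8%. The *Mest* window held 2 copies of the hexamer, and the *Meg3* window 1. The other 4 held none. Over the 55 windows of members in the table, 8 held the hexamer (14.5%), against 8.68% of all 32851 windows of the same length. The 8 include 2 overlapping *Mest* windows with the same copies. The hexamer holds a CpG, and the median was 10 CpG in windows of members and 6 in all windows, so the shares are not compared further. The *Igf2* window is that of the most downstream of its 4 starts in the table.

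The members differed widely in level, as the map of levels by library shows. In c-Kit- cells *Igf2* alone was at 12049 and 12253 TPM and *Phlda2* at 10409 and 9839 TPM. *Tspan32* had no count in any sorted library, EpiSC library or SGC0946 library, and *Nap1l5* had at most 3 counts in the sorted, EpiSC and SGC0946 libraries. Members together made 2.77% and 2.69% of all TPM in c-Kit- cells, 0.841% and 0.700% in the c-Kit+ libraries, 0.333% to 0.348% in EpiSCs, 0.187% and 0.152% in BV+SC+ cells, and 1.58% and 2.15% at Day 3 with and without SGC0946. *Igf2* made 43.6% and 45.5% of the members' TPM in c-Kit- cells and 0.630% to 0.748% in EpiSCs.

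**Figure D1:**
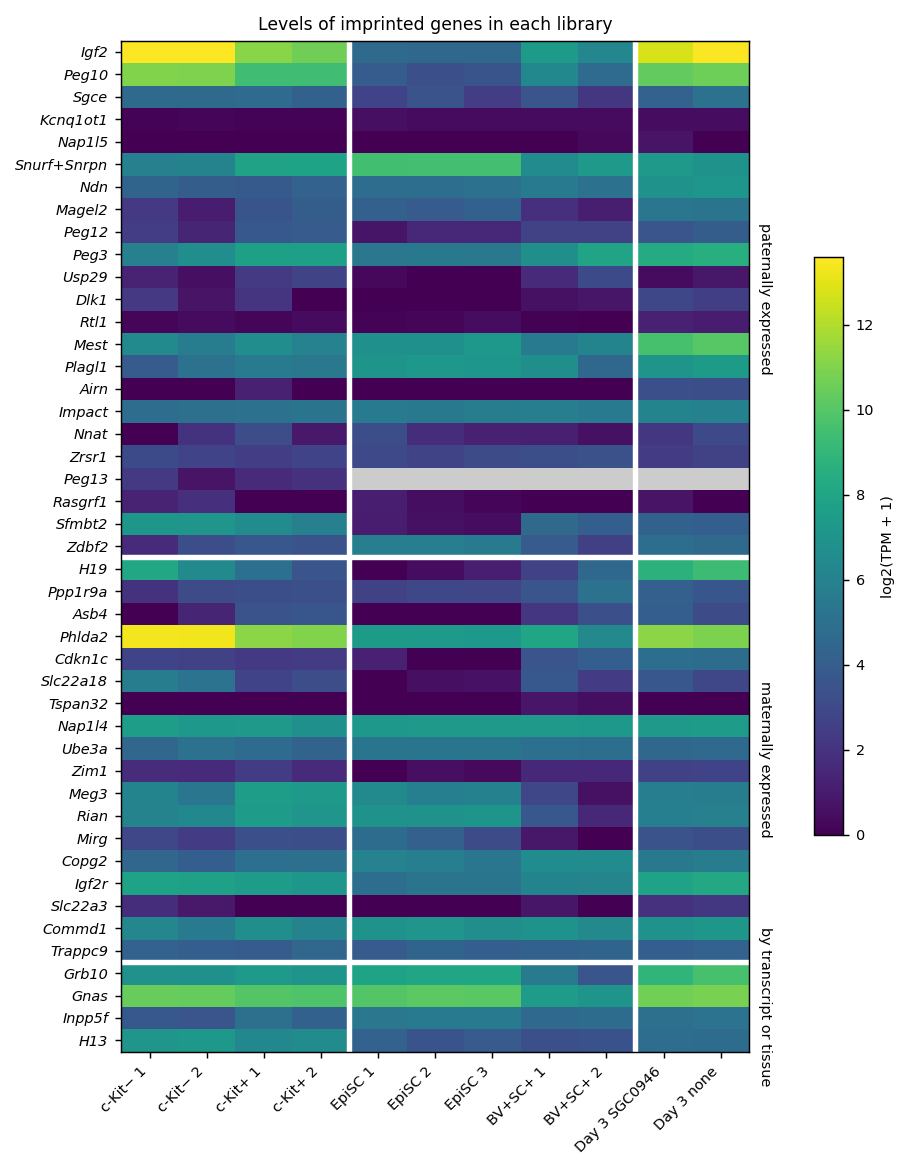
Log2(TPM + 1) of the 45 rows (vertical) in each of the 11 libraries (horizontal), with white lines between the experiments and between paternally expressed, maternally expressed and transcript- or tissue-dependent members; grey marks *Peg13* where it is not listed. *Igf2*, *Phlda2* and *Peg10* are brightest in c-Kit- cells, and *Igf2* lies at 22.0 to 25.0 TPM in EpiSCs.

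c-Kit sorting at Day 3 separated imprinted genes into members that were higher and members that were lower in c-Kit+ cells, in both parental classes. Genes were called at a Benjamini-Hochberg adjusted p under 0.05 with more than a 2-fold change, by edgeR's quasi-likelihood test over all genes that passed its filter on low counts. *Igf2*, *H19*, *Peg10*, *Phlda2* and *Slc22a18* fell in c-Kit+ cells. *Peg3*, *Usp29*, *Magel2*, *Peg12*, *Snurf* with *Snrpn*, *Plagl1*, *Meg3*, *Rian*, *Asb4* and *Ppp1r9a* rose. These 15 are among 34 rows tested, 10 higher where 9.98% of 11018 genes tested were called higher, and 5 lower where 12.9% were called lower (22.9% in either direction). Of 16 paternally expressed rows tested, 6 rose and 2 fell, and of 14 maternally expressed rows 4 rose and 3 fell. None of the 4 transcript- or tissue-dependent members passed both thresholds. *Asb4*, *Usp29*, *Magel2* and *Peg12* reached the filter's count level in 2 libraries of c-Kit+ cells only, and *Slc22a18* in c-Kit- cells only. A gene that passes through 1 group is called more often (52.5% of such genes were), so these 5 calls, of 6 such members, are given as a description. Of 28 members that reached it in both populations 10 were called, where 17.3% of such genes were. At an adjusted p under 0.05 with any fold, 13 rows were higher and 9 lower, 22 in all, where 20.2%, 21.3% and 41.5% of genes were. The median log2 fold change was 0.33 over the 34 rows and 0.03 over all genes tested, and the median size of the change was 0.78 and 0.52.

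**Figure D2:**
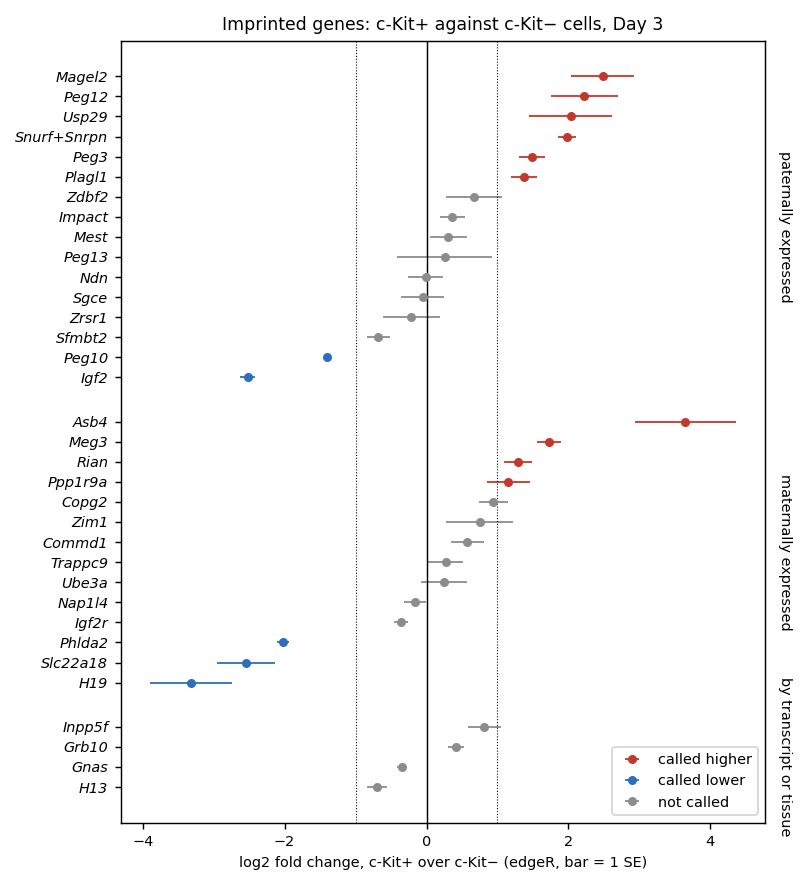
Log2 fold change (horizontal, edgeR, bars of 1 standard error) of the 34 rows tested between 2 c-Kit+ and 2 c-Kit- libraries, with red called higher, blue called lower, grey not called and dotted lines at a 2-fold change. Both parental classes hold points on either side, from *Asb4* at 3.65 to *H19* at -3.32.

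The growth factor *Igf2* and the noncoding RNA *H19*, which use the same enhancers from opposite parental copies, were both lower in c-Kit+ cells. *Igf2* (chr7:142650766-142666816) was at 12049 and 12253 TPM in c-Kit- and 2284 and 1590 TPM in c-Kit+ cells, and the groups did not overlap (37.4% of all genes tested were higher and 35.7% lower without overlap). The log2 fold change was -2.52 (SE 0.11, edgeR adjusted p = 8.0e-07). *H19* (chr7:142575529-142578143) was at 278 and 90.7 TPM in c-Kit- and 30.1 and 10.8 TPM in c-Kit+ cells. In both populations replicate 1 was above replicate 2. The log2 fold change was -3.32 (SE 0.57, edgeR adjusted p = 0.0015), -2.23 without c-Kit- replicate 1 and -4.23 without c-Kit+ replicate 1. *Gm49394* overlaps 62.8% of the exonic bases of *Igf2* on the same strand in the annotation used here, so a read in that stretch cannot be given to either from sequence alone.

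Next to it on chromosome 7, the domain of the silencing RNA *Kcnq1ot1* held 2 members lower in c-Kit+ cells. *Phlda2*, which restrains growth of the placenta, was at 10409 and 9839 TPM in c-Kit- and 2426 and 2087 TPM in c-Kit+ cells (log2 fold change -2.02, SE 0.08, edgeR adjusted p = 5.8e-07). *Slc22a18*, an organic cation transporter, was at 51.2 and 35.2 TPM in c-Kit- and 5.55 and 8.37 TPM in c-Kit+ cells (log2 fold change -2.54, SE 0.41, edgeR adjusted p = 0.00099, and -3.18 without c-Kit+ replicate 2). Neither of these maternally expressed genes overlapped between the groups. The cell cycle inhibitor *Cdkn1c* was at 5.66 and 5.16 TPM against 3.95 and 4.42 TPM and *Kcnq1ot1* at 0.08 to 0.18 TPM, both under the filter on low counts. The histone chaperone *Nap1l4*, at the edge of the domain, was at 189 and 149 TPM against 157 and 113 TPM with an edgeR adjusted p of 0.43.

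The members around *Peg10* on chromosome 6 went in different directions. *Peg10*, a gene derived from a retrotransposon and needed for the placenta, was at 2035 and 1988 TPM in c-Kit- and 693 and 693 TPM in c-Kit+ cells (log2 fold change -1.40, SE 0.05, edgeR adjusted p = 5.8e-07). Its neighbour *Sgce*, which starts beside it on the other strand and is also paternally expressed, was at 24.9 and 25.4 TPM against 26.0 and 17.5 TPM, and its groups overlapped (edgeR adjusted p = 0.90). The maternally expressed *Asb4*, a ubiquitin ligase adaptor, had 0 and 5 counts in c-Kit- and 28 and 35 counts in c-Kit+ cells, or 0 and 1.63 TPM against 9.95 and 11.3 TPM (log2 fold change 3.65, SE 0.71, edgeR adjusted p = 0.0030). It was 2.66 without c-Kit- replicate 1, and 8.00 without c-Kit- replicate 2, when the remaining c-Kit- library is at 0. *Ppp1r9a*, a neuronal actin-binding protein, was at 2.96 and 7.64 TPM against 8.49 and 9.0 TPM. Its log2 fold change of 1.15 (SE 0.30, edgeR adjusted p = 0.012) was 0.76 without c-Kit- replicate 1, and its adjusted p rose to 0.063 without c-Kit+ replicate 2.

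In the *Snrpn* domain of chromosome 7, *Snurf* with *Snrpn*, *Magel2* and *Peg12* rose, and the paternally expressed *Ndn* did not. *Magel2* and *Peg12* reached the filter's count level in c-Kit+ cells only, so their calls and p-values are given as a description. *Snurf* and *Snrpn*, the second of which encodes a splicing protein, had 108 and 118 counts in c-Kit- and 403 and 450 counts in c-Kit+ cells, all given to *Snrpn*, or 60.1 and 66.3 TPM against 222 and 230 TPM. The log2 fold change was 1.98 (SE 0.13, edgeR adjusted p = 5.4e-06). *Magel2* was at 3.85 and 1.15 TPM against 10.6 and 15.0 TPM (log2 fold change 2.48, SE 0.44, edgeR adjusted p = 0.0019), and *Peg12* at 4.43 and 1.63 TPM against 12.4 and 13.7 TPM (2.23, SE 0.47, edgeR adjusted p = 0.0045). Without c-Kit- replicate 1 these were 3.57 and 3.08, and without c-Kit- replicate 2 *Magel2* was 1.84. *Ndn*, a relative of *Magel2* in the MAGE family, was at 20.0 and 15.3 TPM against 13.6 and 18.1 TPM, with overlapping groups. The maternally expressed ubiquitin ligase *Ube3a* was at 21.1 and 32.3 TPM against 25.9 and 19.1 TPM, also overlapping (edgeR adjusted p = 0.57).

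*Peg3* and *Usp29*, whose starts lie 163 bases apart in the stretch printed above, were both higher in c-Kit+ cells. *Peg3*, a zinc finger protein, was at 60.1 and 99.2 TPM in c-Kit- and 211 and 202 TPM in c-Kit+ cells (log2 fold change 1.49, SE 0.18, edgeR adjusted p = 0.00022). *Usp29*, a deubiquitinase gene, had only 6 and 2 counts in c-Kit- and 13.6 and 18 counts in c-Kit+ cells. The difference, 2.03 on the log2 scale (SE 0.58, edgeR adjusted p = 0.020), was 2.95 without c-Kit- replicate 1 and 1.44 without c-Kit- replicate 2, and lost its call without c-Kit- replicate 2 (adjusted p = 0.13), c-Kit+ replicate 1 (0.094) or c-Kit+ replicate 2 (0.17). The maternally expressed *Zim1* of the same domain was at 2.29 and 2.16 TPM against 4.13 and 2.2 TPM (edgeR adjusted p = 0.23).

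The noncoding RNAs of the *Dlk1*-*Meg3* domain on chromosome 12 were higher in c-Kit+ cells. *Meg3* (chr12:109541001-109571726) was at 69.9 and 39.5 TPM in c-Kit- and 190 and 162 TPM in c-Kit+ cells (log2 fold change 1.73, SE 0.17, edgeR adjusted p = 5.7e-05). *Rian*, which hosts small nucleolar RNAs, was at 66.5 and 80.9 TPM against 178 and 133 TPM. Its log2 fold change was 1.29 (SE 0.20, edgeR adjusted p = 0.00075), and 0.99 without c-Kit+ replicate 1, just under the 2-fold line. *Mirg*, which hosts microRNAs, had 5 and 3 against 9 and 9 counts and was not tested. The paternally expressed *Dlk1*, a Notch-related ligand, had at most 5 counts a library, and *Rtl1* at most 2.

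Among the remaining pairs with opposite parental expression, no member was called. *Igf2r*, the receptor that clears IGF2, was at 234 and 215 TPM against 172 and 141 TPM without overlap (log2 fold change -0.36, SE 0.10, edgeR adjusted p = 0.019), and its antisense RNA *Airn* had 1 count over the 4 libraries. *Mest*, a putative hydrolase, was at 90.8 and 52.6 TPM against 98.4 and 62.9 TPM, and *Copg2*, a coatomer subunit, at 21.4 and 15.8 TPM against 29.9 and 30.9 TPM. *Copg2* (log2 fold change 0.94, SE 0.20, edgeR adjusted p = 0.0053) passed the 2-fold line without c-Kit- replicate 1 (1.14). *Mest* and *Copg2* overlap on opposite strands over 23.1% and 17.8% of their exonic bases, and the strand setting of the counting is not given in the sources used here. *Zrsr1*, a splicing factor gene, was at 7.40 and 5.54 TPM against 4.46 and 5.63 TPM, and *Commd1*, within which it lies, at 76.5 and 48.3 TPM against 108 and 66.5 TPM. *Peg13*, a noncoding RNA, was at 3.99 and 0.67 TPM against 2.2 and 2.86 TPM, and *Trappc9*, which contains it, at 18.1 and 15.5 TPM against 14.7 and 21.4 TPM.

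Of the other members tested, *Plagl1*, a zinc finger transcription factor, rose from 13.7 and 34.0 TPM in c-Kit- to 50.0 and 42.4 TPM in c-Kit+ cells (log2 fold change 1.37, SE 0.19, edgeR adjusted p = 0.00041). The adjusted p was also under 0.05, with less than a 2-fold change, for *Sfmbt2* (-0.68), *H13* (-0.69), *Gnas* (-0.35), *Grb10* (0.42) and *Inpp5f* (0.81). *Sfmbt2*, a Polycomb protein, reached -1.03 without c-Kit+ replicate 1. *Zdbf2* was at 2.23 and 8.73 TPM against 11.8 and 10.2 TPM, and its log2 fold change of 0.67 (edgeR adjusted p = 0.20) became 1.67 without c-Kit- replicate 2, past both thresholds. *Impact* was at 28.3 and 31.5 TPM against 32.9 and 36.8 TPM (edgeR adjusted p = 0.13). The filter left out 11 of the 45 rows, with at most 14.2 counts in a library. Of these, *Slc22a3* and *Rasgrf1* had no count in c-Kit+ cells. The c-Kit- libraries were at least 1.74-fold and 2.07-fold higher, taking 3 counts as the limit in a library at 0.

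Markers of other cell types moved with the sort. The summed level of 11 trophoblast markers was 4974 and 4419 TPM in c-Kit- and 1004 and 765 TPM in c-Kit+ cells. Of 10 tested, 6 fell in c-Kit+ cells (among them *Gata2*, *Plac1*, *Krt8* and *Hand1*) and *Cdx2* and *Eomes* rose. The summed level of 8 fibroblast markers was 209 and 169 TPM against 63.9 and 50.0 TPM, and 5 of 5 tested fell. Their part in the differences of *Igf2*, *H19*, *Peg10*, *Phlda2* and *Slc22a18* was not tested. Markers of pluripotent and germ cells were higher in c-Kit+ cells. The sum of 7 primed markers was 39.9 and 41.2 TPM in c-Kit- and 298 and 289 TPM in c-Kit+ cells, with *Lefty2*, *Otx2* and *Sox3* higher and *Pou3f1* lower of 4 tested. The sum of 11 germ cell and naïve markers was 428.5 and 393 TPM against 1001 and 835 TPM, and 7 of 9 tested rose, the sort gene *Kit* among them. Their part in the members that rose, such as *Snurf* with *Snrpn*, *Meg3* and *Rian*, was not tested. In these bulk samples, fewer cells of a type and less RNA per cell cannot be told apart.

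BV+SC+ cells at Day 6 also differed from EpiSCs at imprinted genes, again in both directions and both parental classes. *Sfmbt2*, *Igf2*, *Peg10*, *Peg3*, *Peg12*, *Asb4*, *H19*, *Cdkn1c*, *Zim1* and *Igf2r* rose. *Magel2*, *Snurf* with *Snrpn*, *Zdbf2*, *Mest*, *Meg3*, *Rian*, *Mirg*, *Grb10* and *Gnas* fell. These 19 are among 34 rows tested, 10 higher where 16.8% of 11791 genes were called higher, and 9 lower where 17.2% were called lower (34.0% in either direction). Of 15 paternally expressed rows tested, 5 rose and 4 fell, of 15 maternally expressed rows 5 rose and 3 fell, and of 4 transcript- or tissue-dependent members 2 fell. At an adjusted p under 0.05 with any fold, 13 rows were higher and 10 lower, 23 in all, where 29.6%, 26.5% and 56.0% of genes were. The median log2 fold change was 0.15 over the 34 rows and 0.05 over all genes tested, and the median size of the change 1.51 and 0.67. *H19*, *Asb4*, *Cdkn1c*, *Zim1*, *Peg12* and *Sfmbt2* reached the filter's count level, scaled to library size, in 2 libraries of BV+SC+ cells only, and *Meg3*, *Rian*, *Mirg* and *Magel2* in EpiSCs only. A gene that passes through 1 group is called more often (77.2% of such genes were), so these 10 calls, of 11 such members, are given as a description. Of 23 members that reached it in both, 9 were called, where 24.6% of such genes were. The sum of the primed markers was 604 to 728 TPM in EpiSCs and 289 and 124 TPM in BV+SC+ cells. Of 6 tested, 4 fell and *Lefty2* rose (4.55 to 10.0 TPM against 267 and 53.6 TPM), so *Lefty2* made most of the sum in BV+SC+ replicate 1. The sum of the germ cell and naïve markers was 164 to 209 TPM against 4070 and 4885 TPM. Their part in the members' differences was not tested.

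**Figure D3:**
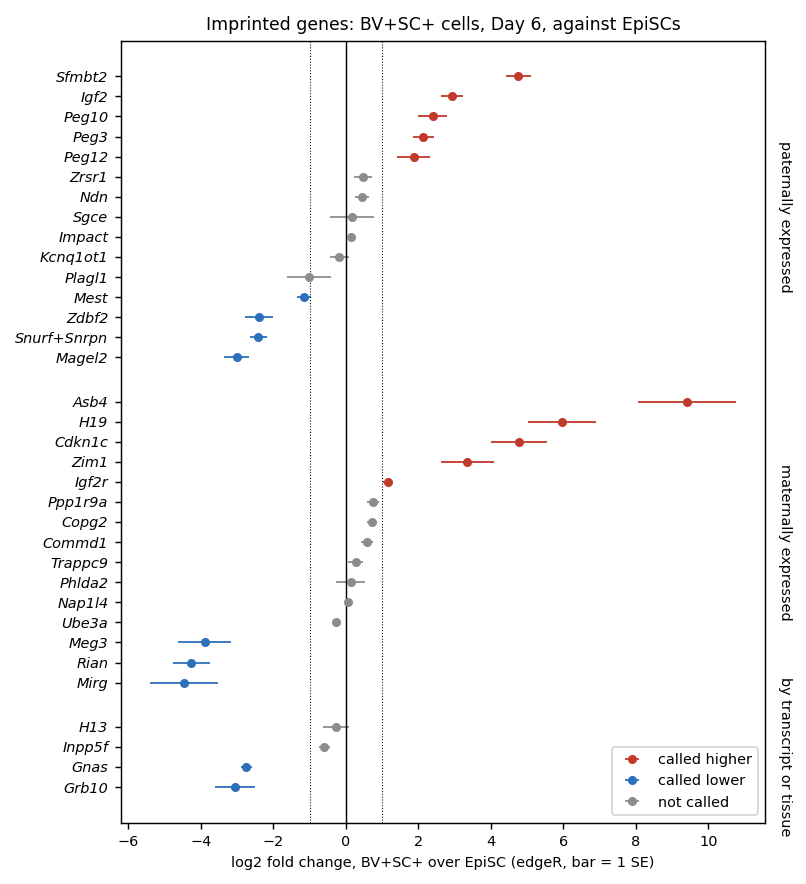
Log2 fold change (horizontal, edgeR, bars of 1 standard error) of the 34 rows tested between 2 BV+SC+ and 3 EpiSC libraries, with red called higher, blue called lower, grey not called and dotted lines at a 2-fold change. The noncoding RNAs *Meg3*, *Rian* and *Mirg* lie between -4.46 and -3.89, and the fitted values of *Asb4*, *H19*, *Cdkn1c* and *Zim1* rest on 0 to 4 counts in EpiSC libraries.

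All 3 noncoding RNAs of the *Dlk1*-*Meg3* domain were lower in BV+SC+ cells. All 3 reached the filter's count level in EpiSCs only, so their calls and p-values are given as a description. *Meg3* was at 84.8, 57.6 and 61.4 TPM in EpiSCs and 6.40 and 0.55 TPM in BV+SC+ cells (log2 fold change -3.89, SE 0.73, edgeR adjusted p = 0.0027). *Rian* was at 122, 118 and 132 TPM against 12.0 and 1.88 TPM (-4.26, SE 0.52, edgeR adjusted p = 0.00034), and *Mirg* at 27, 17.1 and 7.78 TPM against 0.86 and 0 TPM (-4.46, SE 0.93, edgeR adjusted p = 0.0045). For all 3 the BV+SC+ library of replicate 2 was the lowest of the 5, and the size of the change rests on which of the pair is used. Without BV+SC+ replicate 1 the log2 fold changes of *Meg3*, *Rian* and *Mirg* were -6.20, -5.67 and -8.42, and without replicate 2 they were -3.02, -3.53 and -3.42. The paternally expressed *Dlk1* had no count in EpiSCs and 2 counts in each BV+SC+ library, and *Rtl1* had at most 4 counts a library, so no fold is given for *Dlk1*.

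In the *Snrpn* domain, *Snurf* and *Snrpn* fell while *Peg12* rose. The summed row was at 718, 726 and 740 TPM in EpiSCs and 93.4 and 164 TPM in BV+SC+ cells (log2 fold change -2.42, SE 0.24, edgeR adjusted p = 0.00012). *Snurf* itself held 13.2, 10.3 and 20.6 of these counts in EpiSCs and none in BV+SC+ cells. *Magel2* was at 17.3, 14.2 and 17.3 TPM against 2.63 and 1.2 TPM (-3.02, SE 0.35, edgeR adjusted p = 0.00026, and -3.64 without BV+SC+ replicate 1). *Peg12*, related to a GSK3-binding protein, was at 0.72, 1.99 and 1.81 TPM against 5.13 and 5.21 TPM (1.87, SE 0.46, edgeR adjusted p = 0.0093). *Ndn* was at 28.4 to 33.3 TPM against 44.8 and 33.6 TPM (edgeR adjusted p = 0.087), and *Ube3a* at 37.4 to 37.8 TPM against 30.1 and 29.3 TPM (edgeR adjusted p = 0.082). Neither was called, although their groups did not overlap. Without overlap, 38.1% of all genes tested were higher and 34.9% lower.

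*Peg3* was at 40.2, 43.5 and 42.4 TPM in EpiSCs and 108 and 240 TPM in BV+SC+ cells (log2 fold change 2.14, SE 0.28, edgeR adjusted p = 0.00053, and 1.43 without BV+SC+ replicate 2). *Usp29*, read from the other side of the same stretch, had 1, 0 and 0 counts in EpiSCs and 47 and 185 counts in BV+SC+ cells, under the filter, and its ratio of summed reads was 59.8 (95% interval 10.6 to 2372, counting error only). *Zim1* had 0, 2 and 1 counts in EpiSCs and 55 and 69 counts in BV+SC+ cells, a ratio of 10.7 (3.56 to 52.4) with an edgeR adjusted p of 0.0054. The fitted log2 fold change of *Zim1* was 2.74 without EpiSC replicate 1 and 4.26 without EpiSC replicate 2. All 3 members of this domain were thus higher in both BV+SC+ libraries than in any EpiSC library, as were 38.1% of all genes tested. *Usp29* was not tested, and *Zim1* reached the filter's count level in BV+SC+ cells only.

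*Igf2* and *H19* were both higher in BV+SC+ cells. *Igf2* was at 25.0, 22.0 and 23.4 TPM in EpiSCs and 170 and 75.9 TPM in BV+SC+ cells (log2 fold change 2.93, SE 0.31, edgeR adjusted p = 0.00017, and 2.28 without BV+SC+ replicate 1). *H19* had 0, 1 and 1 counts in EpiSCs and 100 and 436 counts in BV+SC+ cells, a ratio of 69.1 (95% interval 19 to 572, counting error only, edgeR adjusted p = 0.0011). The fitted log2 fold change of *H19* was 6.60 without BV+SC+ replicate 1 and 4.68 without replicate 2. The BV+SC+ library with more *Igf2* had less *H19*: replicate 1 was at 170 and 5.48 TPM, replicate 2 at 75.9 and 22.6 TPM. *Igf2r* was at 28.5, 36.1 and 36.6 TPM in EpiSCs and 69.1 and 72.3 TPM in BV+SC+ cells (log2 fold change 1.15, SE 0.13, edgeR adjusted p = 0.00021), and *Airn* had no count in these 5 libraries.

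In the *Kcnq1ot1* domain, *Cdkn1c* had 4, 0 and 0 counts in EpiSCs and 164 and 279 counts in BV+SC+ cells, or 1.39, 0 and 0 TPM against 11.1 and 15.7 TPM (log2 fold change 4.78, SE 0.78, edgeR adjusted p = 0.0014). The 4 counts of EpiSC replicate 1 set this size. Without that library, when the other EpiSC libraries are at 0, it was 9.99, and without EpiSC replicate 2 it was 4.20. *Slc22a18* had 0, 1 and 1 counts against 69 and 44, under the filter, with a ratio of 14.6 (95% interval 3.94 to 122). *Phlda2* was at 169, 162 and 149 TPM against 262 and 82.5 TPM, and the BV+SC+ libraries lay on either side of the EpiSCs (edgeR adjusted p = 0.79). *Kcnq1ot1* was at 0.31 to 0.45 TPM against 0.30 and 0.31 TPM, and *Nap1l4* at 153 to 160 TPM against 160 and 151 TPM. *Tspan32* had no count in EpiSCs and was at 0.75 and 0.41 TPM in BV+SC+ cells.

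Around *Peg10*, that gene was at 14.5, 9.13 and 10.4 TPM in EpiSCs and 79.1 and 25.6 TPM in BV+SC+ cells (log2 fold change 2.39, SE 0.40, edgeR adjusted p = 0.0016). It was 1.40 without BV+SC+ replicate 1 and 2.98 without replicate 2. *Sgce* was at 4.53 to 10.3 TPM against 11 and 3.52 TPM, with overlap. *Asb4* had no count in EpiSCs and 87 and 261 counts in BV+SC+ cells, at least 9.56-fold higher when 3 counts are taken as the limit in each EpiSC library (edgeR adjusted p = 0.0019). *Ppp1r9a* was at 5.41 to 6.77 TPM against 11 and 33 TPM, with a log2 fold change of 0.76 on its counts (SE 0.16, edgeR adjusted p = 0.0054), under the 2-fold line.

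*Sfmbt2* was low in EpiSCs, at 1.06, 0.55 and 0.38 TPM, and at 25.0 and 15.6 TPM in BV+SC+ cells (log2 fold change 4.76, SE 0.35, edgeR adjusted p = 3.6e-05). *Zdbf2*, a zinc finger gene, fell from 54.6, 55.9 and 49.6 TPM to 13.8 and 4.99 TPM (-2.39, SE 0.38, edgeR adjusted p = 0.0013, and -3.31 without BV+SC+ replicate 1). *Mest* was at 112, 110 and 151 TPM against 48.6 and 69.2 TPM. Its log2 fold change of -1.16 (SE 0.19, edgeR adjusted p = 0.0014) was -0.99 without EpiSC replicate 3. *Copg2* was at 63.7, 54.9 and 38.9 TPM against 95.6 and 92.9 TPM (0.71, SE 0.12, edgeR adjusted p = 0.0016), also without overlap and under the 2-fold line.

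*Grb10*, an adaptor of the insulin receptor, and *Gnas*, which encodes the stimulatory G protein alpha subunit, were both lower. *Grb10* was at 231, 262 and 251 TPM in EpiSCs and 47.4 and 11 TPM in BV+SC+ cells (log2 fold change -3.06, SE 0.54, edgeR adjusted p = 0.0020), with -4.48 without BV+SC+ replicate 1 and -2.35 without replicate 2. *Gnas* was at 1003, 1134 and 1096 TPM against 182 and 128 TPM (-2.74, SE 0.16, edgeR adjusted p = 1.2e-05). *Inpp5f* was at 40.6 to 47.6 TPM against 23.6 and 26.9 TPM (-0.60, edgeR adjusted p = 0.0093) and *H13* at 10.6 to 18.4 TPM against 9.03 and 9.82 TPM (edgeR adjusted p = 0.55). *Plagl1* was at 131, 148 and 138 TPM against 109 and 23.1 TPM (-1.03, SE 0.61, edgeR adjusted p = 0.19), and it was called at -2.89 without BV+SC+ replicate 1.

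Members that were not called otherwise included *Zrsr1* at 5.89 to 7.89 TPM against 8.61 and 9.44 TPM, *Commd1* at 103 to 135 TPM against 127 and 83.9 TPM, *Trappc9* at 13.7 to 19.9 TPM against 17.7 and 19.5 TPM, and *Impact* at 44.2 to 51.5 TPM against 55.8 and 44.8 TPM. The filter left out 10 of 44 listed rows. Among these, *Nap1l5* and *Slc22a3* had no count in EpiSCs, *Nnat* had 1 to 9 counts in every library, and *Rasgrf1* had 4, 3 and 1 counts in EpiSCs and 1 and 0 in the deeper BV+SC+ libraries.

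The BV+SC+ libraries differed from each other at many members. Of 35 members above 1 TPM in either, 15 were more than 2-fold apart on the TPM + 1 scale, against 11.4% of 13574 genes. In EpiSCs, 2 to 4 members were that far apart in each pair of libraries, against 9.75% to 10.4% of genes. In the c-Kit sort this held for 10 of 40 members between the c-Kit- libraries, against 18.2% of genes, and for 4 of 39 between the c-Kit+ libraries, against 16.9%. Between the BV+SC+ libraries, *Igf2*, *Peg10*, *Phlda2*, *Sgce*, *Slc22a18*, *Meg3*, *Rian*, *Grb10*, *Plagl1* and *Zdbf2* were higher in replicate 1, and *H19*, *Ppp1r9a*, *Asb4*, *Peg3* and *Usp29* in replicate 2. With 1 library of each description these differences have no replicate check. The summed level of the 11 trophoblast markers was 141 TPM in replicate 1 and 56.6 TPM in replicate 2, against 37.0 to 61.5 TPM in EpiSCs, with *Krt8* at 51.1 and 12.9 TPM. Of 5 tested against EpiSCs, *Gata2*, *Krt8* and *Krt18* were called higher, where 16.8% of all genes tested were. *Eomes* and *Tead3* were not called. *Gata2* was at 0 to 0.41 TPM in EpiSCs against 15.2 and 4.16 TPM in BV+SC+ cells. The part of cells with these markers in the values of *Igf2*, *Peg10* and *Phlda2* was not tested. Without replicate 1, 21 members were called and without replicate 2, 20 members.

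**Figure D4:**
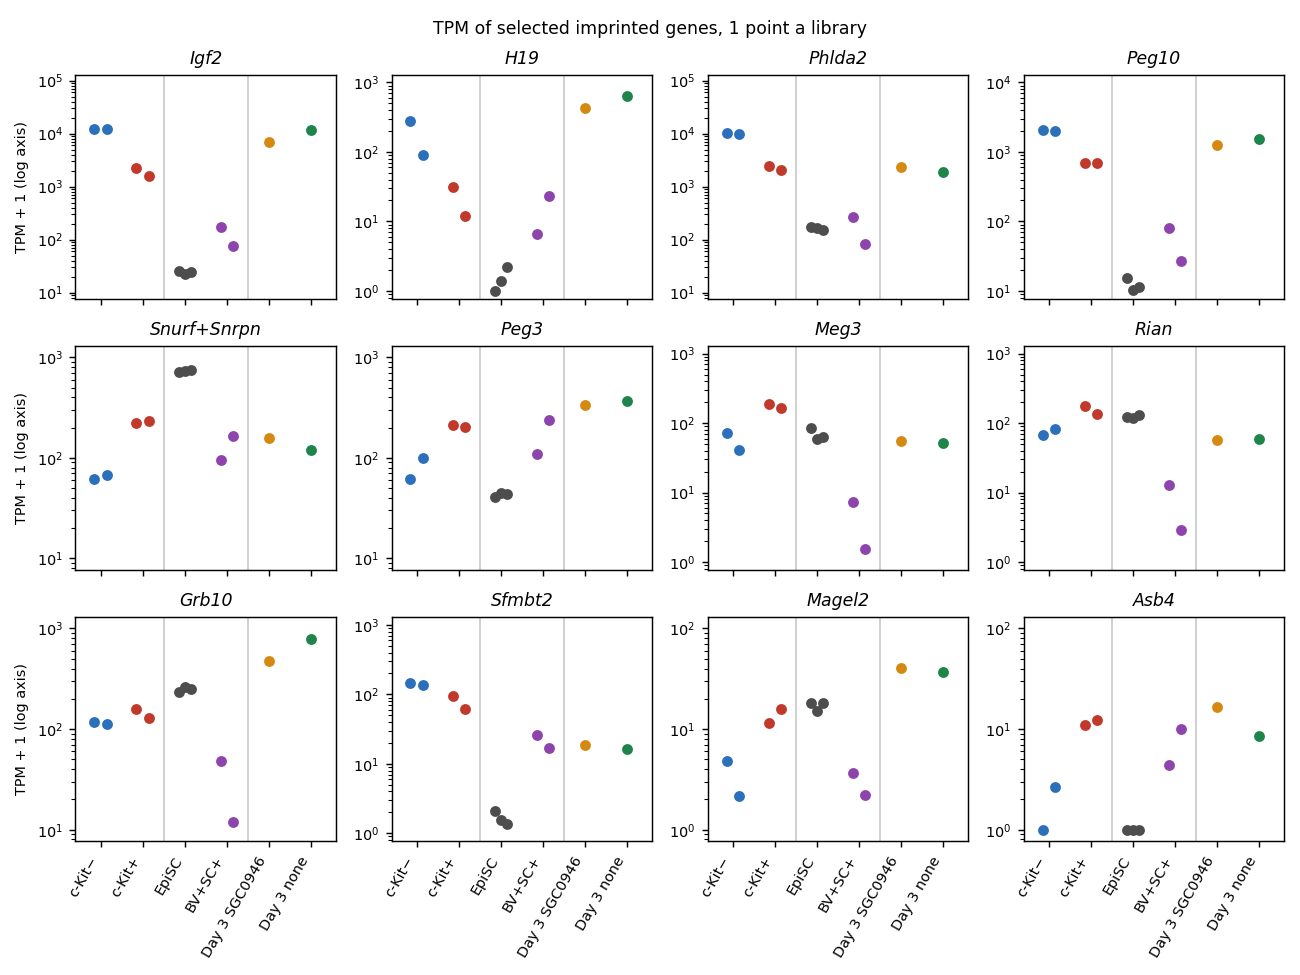
TPM + 1 on a log axis (vertical) of 12 members in the 6 groups (horizontal), 1 point a library, with grey lines between experiments. *Meg3*, *Rian*, *Grb10* and *Magel2* are lower in both BV+SC+ libraries than in the 3 EpiSC libraries, *Peg3* and *Asb4* higher, and *H19* and *Asb4* lie at or near 0 TPM in EpiSCs.

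The c-Kit sort and the comparison of BV+SC+ cells with EpiSCs share no library, and 10 members were called in both, of 15 and of 19. Of 31 members tested in both, that is 32.3%, where 10.4% of 10196 genes tested in both were called in both. Of those genes 32.7% went in opposite directions, and the members that did so were 7 of 10. *Magel2*, *Peg12*, *Asb4*, *H19*, *Meg3* and *Rian* are among the calls that passed the filter through 1 group in a comparison. Genes that do so are called more often (52.5% in the c-Kit sort and 77.2% in BV+SC+ cells against EpiSCs). No share was taken over genes matched for this, and *Meg3* and *Rian* share a domain. Both contrasts with all genes are thus given as a description. *Peg3*, *Peg12* and *Asb4* were higher in c-Kit+ than in c-Kit- cells and higher in BV+SC+ cells than in EpiSCs. The other 7 went in opposite directions. *Magel2*, *Snurf* with *Snrpn*, *Meg3* and *Rian* were higher in c-Kit+ cells and lower in BV+SC+ cells, and *Igf2*, *H19* and *Peg10* were lower in c-Kit+ cells and higher in BV+SC+ cells. The comparisons differ in gene list and reference population and may differ in kit, so the values stand side by side.

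At Day 3 no member above 1 TPM was past a 2-fold change between the libraries with and without SGC0946 once 1 TPM was added to each value. On the plain ratio of TPM, *Asb4* was just past it upwards and *Nnat* downwards. DOT1L methylates lysine 79 of histone H3, and the comparison asks what its inhibition does within stage 1 medium. With 1 library a group there is no test, and the difference has no replicate check. On the log2(TPM + 1) scale, which understates the change of low genes, none of the 39 members above 1 TPM in either library was past a 2-fold change, where 9.77% of 14037 genes were (6.33% higher and 3.45% lower with SGC0946). All 39 were above 1 TPM in both libraries. Among all genes above 1 TPM in both, 554 were past a 2-fold change, in place of 1372. The 9.77% is thus not a like share for the members. Of the 39, 16 were higher and 23 lower with SGC0946, with a median of -0.13 against 0.01 over all genes. The median was -0.15 over 18 paternally expressed and -0.03 over 17 maternally expressed members.

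*Igf2* was at 7044 TPM with and 11786 TPM without SGC0946, a log2 ratio of TPM of -0.74 (95% interval of the counts -0.76 to -0.72). *H19* was also lower, at 430 against 628 TPM (-0.54, interval -0.62 to -0.47). *Grb10* was at 470 against 790 TPM (-0.75, interval -0.80 to -0.70), *Mest* at 785 against 1062 TPM (-0.44) and *Sgce* at 18.2 against 32.1 TPM (-0.81, interval -1.26 to -0.38). These intervals, here and elsewhere, cover counting error only, since reads without molecular identifiers are not independent molecules. *Asb4* was the nearest to a 2-fold increase, at 15.6 against 7.60 TPM (log2 ratio of TPM 1.04, interval 0.55 to 1.54, and 0.95 on the TPM + 1 scale). *Slc22a18* was at 11.9 against 6.54 TPM (0.87, interval 0.09 to 1.68), *Ppp1r9a* at 16.7 against 11.3 TPM (0.57) and the summed row of *Snurf* and *Snrpn* at 157 against 118 TPM (0.41, interval 0.25 to 0.58). *Phlda2* was at 2361 against 1921 TPM (0.30).

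The intervals lay above 0 for 6 members and below 0 for 11, and held 0 for the others. Among the neighbours with opposite parental expression, *Meg3* was at 54.6 against 50.6 TPM, *Rian* at 57.0 against 58.8 TPM and *Dlk1* at 6.67 against 4.73 TPM (28 and 12 counts). *Peg3* was at 331 against 367 TPM and *Zim1* at 5.45 against 5.6 TPM. *Airn* was at 9.01 against 8.5 TPM and *Igf2r* at 225 against 291 TPM. *Cdkn1c* was at 29.2 against 26.9 TPM, *Kcnq1ot1* at 0.39 against 0.38 TPM and *Ube3a* at 23.4 against 23.8 TPM. *Copg2* was at 43.2 against 51.0 TPM, *Zrsr1* at 4.16 against 5.07 TPM, *Commd1* at 124 against 145 TPM and *Trappc9* at 16 against 18 TPM. *Nnat* was at 3.53 against 7.11 TPM (9 and 14 counts), with a log2 ratio of TPM of -1.01 (interval -2.40 to 0.30) and -0.84 on the TPM + 1 scale. *Usp29*, under 1 TPM in both, was at 0.31 against 0.83 TPM (2 and 5 counts), a log2 ratio of -1.42 (interval -4.81 to 1.19). The remaining members above 1 TPM were between -0.42 (*Peg12*) and 0.24 on the log2(TPM + 1) scale. The summed trophoblast markers were at 1248 TPM with and 1635 TPM without SGC0946, and their part in the lower *Igf2* and *H19* was not tested.

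**Figure D5:**
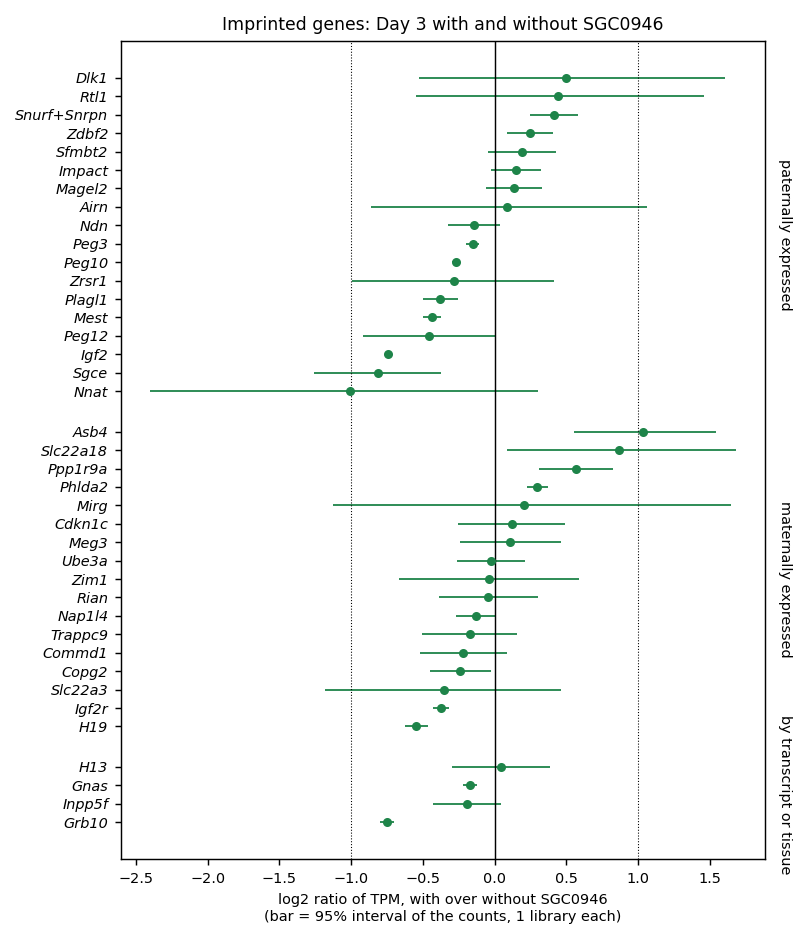
Log2 ratio of TPM with over without SGC0946 (horizontal, bars of the 95% interval of the counts, 1 library each) for the 39 members above 1 TPM in either library, with dotted lines at a 2-fold change. *Igf2*, *H19* and *Grb10* lie left of 0 with short bars, *Asb4* lies at 1.04 with an interval from 0.55 to 1.54, and *Nnat* at -1.01 with an interval that holds 0.

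The factors that keep or erase imprints were followed in a list of 17 genes. In c-Kit+ cells, 16 were tested, 3 rose and 3 fell, where 22.9% of all genes were called. *Zfp57*, which binds methylated imprinting control regions, fell from 45.9 and 37.2 TPM to 18.9 and 20.4 TPM (log2 fold change -1.09, SE 0.27, edgeR adjusted p = 0.0098), while its partner *Trim28* rose from 678 and 703 TPM to 1386 and 1456 TPM (1.12, SE 0.07, edgeR adjusted p = 4.5e-06). The demethylase *Tet1* (log2 fold change 3.00) and *Dppa3*, which protects marks in the egg (1.68 and 1.71 TPM against 83.8 and 59.1 TPM), rose. *Dnmt3a* (-1.17) and *Tet3* (-1.21) fell. In BV+SC+ cells against EpiSCs, all 17 were tested, 4 rose and 4 fell, where 34.0% of all genes were called. One that rose is *Dppa3* (Stella), the gene of the Stella-ECFP reporter used for the sort, so its rise was set by the sort. *Zfp57* was at 78.4 to 86.3 TPM in EpiSCs and 78.2 and 82.0 TPM in BV+SC+ cells (edgeR adjusted p = 0.89), and *Trim28* at 1411 to 1470 TPM against 1174 and 1414 TPM. The de novo methyltransferase *Dnmt3b* was at 679 to 731 TPM in EpiSCs and 17.6 and 41.9 TPM in BV+SC+ cells (log2 fold change -4.48, SE 0.35, edgeR adjusted p = 4.7e-05), *Uhrf1*, which brings DNMT1 to replicated DNA, was at 219 to 233 TPM against 93.1 and 78.7 TPM (-1.30, SE 0.11, edgeR adjusted p = 5.8e-05), and *Dnmt1* was at 123 to 131 TPM against 199 and 212 TPM (0.76, under the 2-fold line). *Dnmt3l* had no TPM in EpiSCs and 36.6 and 108 TPM in BV+SC+ cells. With SGC0946, 2 of the 17 were more than 2-fold higher on the TPM + 1 scale, where 6.33% of all genes were. These were *Dppa3* at 12.7 against 2.49 TPM and *Dnmt3l* at 3.85 against 0 TPM, from 1 library each and without a test.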

How the data were processed

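The 11 bulk RNA-seq libraries were analysed within their experiments. Per the labels and methods, the authors used Bowtie2 and RSEM on mm10, with RSEM 1.3.1 in the notes of the total RNA libraries. The deposited expected counts are RSEM estimates per gene with no scaling between libraries. The deposited TPM values were computed by RSEM from those counts and effective lengths. Coordinates and exon overlaps come from GENCODE M21 on GRCm38. Transcripts were compared with BLAST+ 2.17.0 (98% identity over 75 bases).

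Expected counts of *Snurf* and *Snrpn* were summed, and the TPM of the sum is that of *Snrpn* scaled to the summed counts, because the effective length of *Snurf* is 18.85 bases in an EpiSC library. Counts were rounded and fitted with edgeR 4.0.16 under R 4.3.3, using filterByExpr, TMM, the quasi-likelihood test and Benjamini-Hochberg adjustment over all genes tested. The SGC0946 ratio used a pseudocount of 1 TPM, and its interval is the exact binomial interval (95%) of the 2 counts. A group at 0 was taken as 3 counts a library. Scripts used Python 3.11.15, NumPy 2.4.6, pandas 2.3.3, SciPy 1.17.1 and Matplotlib 3.10.9, and the fit was tested on simulated data.

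The members and gene lists were chosen with earlier results of these data known. Every member is named. Values per library are given for members called in a replicated comparison and for pairs with opposite parental expression. Other genes come from fixed lists. No replicate pair differed by less than sampling noise (chi-square over degrees of freedom 2.01 to 45.4). Alternatives were DESeq2 1.42.0, RLE factors, other filters and thresholds, a replicate block, each library left out, and other scales for SGC0946. Samples of other assays were not used here.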

Additional observations from a re-analysis of the deposited data

How the results depend on the processing

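No called member changed direction under any alternative run. In the c-Kit sort 15 members were called under RLE factors, an unadjusted p and the replicate block, 13 with DESeq2, 17 with no filter, 10 when every library needed 10 counts, and 13 to 15 with each library left out (7 to 8 paternally and 6 to 7 maternally expressed). The filter of 10 counts left 5 paternally expressed members, since fewer were tested. Calls lost in DESeq2 were *Ppp1r9a* (adjusted p = 0.089) and *Usp29* (0.20). In BV+SC+ cells against EpiSCs 19 were called under RLE factors, an unadjusted p and the block, 22 with DESeq2 and with no filter, and 20 to 21 with each library left out (9 to 11 paternally and 8 to 9 maternally expressed). When every library needed 10 counts, 12 members and 3 maternally expressed members were called of 26 and 10 tested, since a member under 10 counts in any library leaves the test, which took *H19*, *Asb4*, *Cdkn1c*, *Zim1*, *Peg12* and *Sfmbt2* (low in EpiSCs) and *Mirg* (9 and 0 counts in BV+SC+ cells). The labels do not say that same-numbered libraries share a source. The correlation of their deviations was 0.11 in the c-Kit sort, where date-like marks in the file names are alike within each number, and over 2 pairs it does not settle whether the numbers pair the libraries. The replicate block changed the call of *Mest* (log2 fold change -0.99) and *Plagl1* (-1.51, called), and calls over all genes were 2527 and 3829 against 2518 and 4010. With SGC0946, 1 member (*Asb4*) in place of 0 passed a 2-fold change with a pseudocount of 0.1 TPM (log2 1.03), with CPM (1.07) and with TMM-scaled CPM (1.04). Chosen after seeing the data, adding *Gm38393*, which overlaps *Snurf* and *Snrpn*, gave the summed row 2.11 and -2.32. *Snrpn* alone gave 1.98 and -2.41. Adding the deposited TPM of *Snurf* and *Snrpn* would put EpiSCs at 1057 to 1413 TPM. At 1726038 to 1841442 counts a library in the sort, members with under 10 counts were not resolved.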

Other observations

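A further 24 imprinted genes outside the list were looked at as a whole. In the c-Kit sort 11 were tested, 1 rose and 3 fell, where 22.9% of all genes tested were called. *Ascl2*, a trophoblast transcription factor expressed from the maternal copy, was at 251 and 196 TPM in c-Kit- and 51.8 and 35.9 TPM in c-Kit+ cells (log2 fold change -2.28, SE 0.18, edgeR adjusted p = 1.4e-05). *Gab1* was at 44.1 and 42.1 TPM against 16.8 and 18.8 TPM (-1.14), *Smoc1* at 42.2 and 33.8 TPM against 10.6 and 8.13 TPM (-1.88), and *Atp10a* at 4.42 and 2.93 TPM against 10.9 and 8.71 TPM (1.79). In BV+SC+ cells against EpiSCs 15 were tested, 3 rose and 2 fell, a share near the 34.0% of all genes tested that were called. *Calcr*, the calcitonin receptor, was at 72.3, 61.9 and 68.6 TPM in EpiSCs and 0.83 and 0.16 TPM in BV+SC+ cells (-7.30, SE 0.42, edgeR adjusted p = 1.2e-05), and *Atp10a* at 6.55 to 7.35 TPM against 26.0 and 36.6 TPM (2.26). With SGC0946, 1 of 19 above 1 TPM was more than 2-fold higher (*Nespas*, 4.97 against 1.76 TPM), where 6.33% of all genes were. Another 1 was more than 2-fold lower (*Ins2*, 0 against 1.63 TPM), where 3.45% were.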
